A study of Mus musculus with 6 samples.

Results

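Type 2 immunity is described here in brown adipose tissue (BAT) through 10 genes that were chosen by their symbols: the cytokine genes Il4, Il5 and Il13, the transcription factor gene Gata3, the receptor gene Il4ra, the signaling gene Stat6 and the macrophage genes Arg1, Retnla, Chil3 and Clec10a. All 10 are among the 35976 rows of the count table, and 7 of them are among the 14542 genes that had enough reads to be tested. Of these 7, Chil3 and Gata3 were called higher in sST2-KO BAT than in WT BAT by edgeR, at an adjusted p under 0.05 and more than a 2-fold change. The call of Gata3 was marginal, on 2 to 19 counts a library, and DESeq2 did not make it. Gata3 had enough reads to be tested only in the sST2-KO libraries. Il4ra was also higher at the same adjusted p, with a fold change under 2. Retnla was lower in every sST2-KO library and narrowly missed the threshold, and Arg1 and Clec10a overlapped between the groups.

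The cytokines IL-4 and IL-13 bind receptors that contain the IL-4Rα chain encoded by Il4ra, which activates STAT6, and STAT6 in turn switches on target genes in the nucleus. The lymphocytes that make these cytokines, T helper 2 cells and group 2 innate lymphoid cells (ILC2s), depend on GATA3. In macrophages, STAT6 signaling is known for a pattern termed alternative activation, whose usual marker genes in the mouse are Arg1, Retnla, Chil3 and Clec10a. In adipose tissue, IL-33 and its receptor ST2 sustain ILC2s, and eosinophils and alternatively activated macrophages are known residents.

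RNA-seq was performed on BAT from 3 WT and 3 sST2-KO male mice, which were littermates on a C57BL/6J background and were 10 weeks old. In all 6 mice the sympathetic nerves to BAT had been cut and the animals had been exposed to 10 °C for 8 h, so the data hold neither an innervated nor a warm control. The sST2-KO mice carry a germline CRISPR/Cas9 deletion of the Il1rl1 intron between exons 8 and 9, made to remove the soluble isoform sST2, a decoy for IL-33, and to leave the membrane receptor ST2L. Counts per gene add up both isoforms, so Il1rl1 cannot check the genotype here: it had 19, 19 and 6 counts in WT against 55, 69 and 142 in sST2-KO libraries. Libraries held 8159442 to 12874809 counts. Values are normalized CPM, that is counts scaled to the TMM-corrected library size, and 3 counts, taken as the floor of detection, were worth 0.209 to 0.370 normalized CPM.

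The tissue carried its markers, with Ucp1 at 7404 ± 2770 normalized CPM in WT and 452 ± 511 in sST2-KO libraries (SD, n = 3). Several lists of cell type markers moved with the genotype, and their part in the results below was not tested. The summed level of 10 macrophage genes was 863 to 1109 normalized CPM in WT and 1464 to 6352 in sST2-KO libraries, the highest being sST2-KO replicate 3. For 10 neutrophil genes it was 31.9 to 150 and 154 to 776, for 6 T cell genes 12.1 to 13.6 and 104 to 130, for 7 brown adipocyte genes 8230 to 15289 and 352 to 1904, for 7 adipocyte genes 16382 to 21656 and 5814 to 12080, and for 10 skeletal muscle genes 6.29 to 1223 and 3535 to 15047. In bulk tissue, more cells of a type and more RNA per cell cannot be told apart.

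The plot of the members by library shows the values that the following paragraphs describe.

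**Figure D1:**
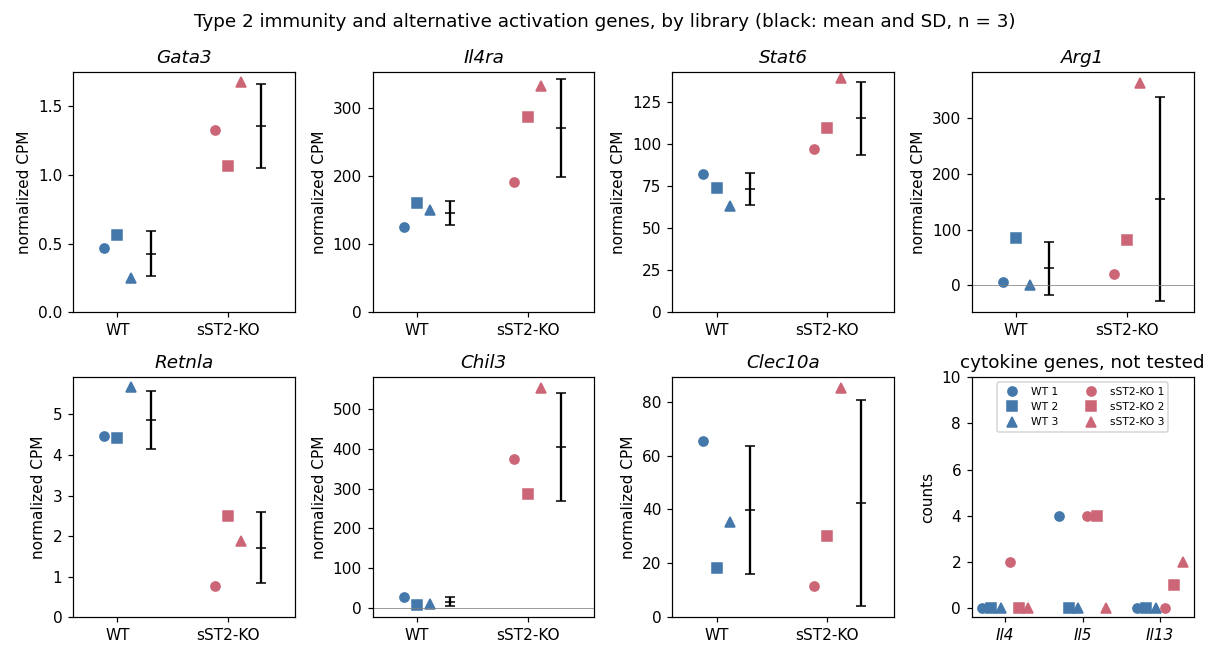
Normalized CPM of the 7 tested genes and counts of the 3 cytokine genes in each library (blue, WT; red, sST2-KO; marker shape, replicate number). Black bars give the mean and SD of 3 libraries. Gata3, Il4ra, Stat6 and Chil3 were higher in all 3 sST2-KO libraries, Retnla was lower in all 3, and Arg1 and Clec10a overlapped.

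The cytokines themselves were at the limit of detection. Il4, whose product drives T helper 2 differentiation, had 0 counts in the 3 WT libraries, against 2, 0 and 0 in sST2-KO replicates 1 to 3. Il13, which acts on macrophages and epithelia, had 0 counts in the WT libraries, against 0, 1 and 2 in the sST2-KO libraries. Il5, the growth factor of eosinophils, had 4, 0 and 0 counts in WT and 4, 4 and 0 in sST2-KO libraries. None of these 3 genes was tested, and the groups overlapped for each. A count of 0 allows up to 0.280, 0.283 and 0.370 normalized CPM in WT replicates 1 to 3, which covers counting error only, so a small difference in these genes was not detectable at this depth. Ifng, the interferon-γ gene, had 2, 8 and 1 counts in WT and 71, 242 and 424 in sST2-KO libraries. It was called higher (adjusted p = 0.0147 by edgeR). Pdcd1lg2, the PD-L2 gene, had 0, 2 and 1 counts in WT and 10, 63 and 65 in sST2-KO libraries. It did not reach the filter, so even a large rise from a low start could go untested.

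Il4, Il13 and Il5 lie together on chromosome 11 in a span of 122 kb (chr11:53493809-53615933, GRCm39), with the DNA repair gene Rad50 between Il13 and Il5. The neighbors of the cytokine genes were expressed. Rad50 was 8.67 ± 1.33 normalized CPM in WT and 17.3 ± 1.44 in sST2-KO libraries, a log2 fold change of 0.99 (SE 0.22, adjusted p = 0.0248 in edgeR's quasi-likelihood test), just under a fold change of 2. Kif3a, which overlaps the end of Il4 on the other strand, was 15.7 ± 1.48 and 12.6 ± 0.593 (adjusted p = 0.279). Irf1 was 181 ± 56.4 and 300 ± 73.0 (adjusted p = 0.124), and Slc22a5 was 193 ± 16.8 and 89.2 ± 35.9 (adjusted p = 0.0505).

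Gata3, the regulator of T helper 2 cells and ILC2s, was a weakly expressed gene with higher counts in sST2-KO BAT. Its counts were 5, 6 and 2 in the WT and 19, 9 and 17 in the sST2-KO libraries, or 0.466, 0.565 and 0.247 against 1.32, 1.07 and 1.68 normalized CPM. All 3 sST2-KO libraries were above all 3 WT libraries, the lowest of them at 1.07 against a highest WT value of 0.565. The log2 fold change was 1.62 (SE 0.46, adjusted p = 0.0453 by edgeR). This call is a marginal one. Gata3 passed the expression filter only through the sST2-KO libraries, the group where it is high. Without a filter, edgeR gave an adjusted p of 0.0934. DESeq2 gave an adjusted p of 0.113. When any of the 6 libraries was left out, edgeR gave 0.0758 to 0.167, with log2 fold changes of 1.37 to 1.86. The T cell genes given above were higher in the same libraries, and their part in the rise of Gata3 was not tested.

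Il4ra, the chain shared by the IL-4 and IL-13 receptors, averaged 14.5 normalized CPM per kb of exon in WT BAT, beside 13.7 for Clec10a, 10.9 for Stat6 and 0.0937 for Gata3. It measured 125.1, 159.6 and 150.4 normalized CPM in the WT and 191.0, 285.6 and 332.4 in the sST2-KO libraries, with no overlap. The log2 fold change was 0.89 (SE 0.25, adjusted p = 0.0469 by edgeR). The adjusted p passed 0.05 with all 6 libraries and without sST2-KO replicate 1 (0.0300), and was 0.104 to 0.144 without any of the others. DESeq2 gave an adjusted p of 0.0122.

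Stat6, the transcription factor downstream of this receptor, measured 81.9, 74.1 and 63.2 normalized CPM in WT and 96.7, 109.6 and 139.0 in sST2-KO libraries. The groups did not overlap here either, and sST2-KO replicate 1, the lowest of its group for both genes, was the nearest to WT. The log2 fold change of 0.66 (SE 0.21) missed the threshold in edgeR (adjusted p = 0.0618) and passed it in DESeq2 (0.0411). Against total counts without TMM scaling, which moved the median of all genes from 0.03 to 0.29, the log2 fold changes of Il4ra and Stat6 were 1.16 and 0.91 (adjusted p = 0.0216 and 0.0372 by edgeR). With RLE factors, another scaling between libraries, the adjusted p values by edgeR were 0.0533 and 0.0689. With the replicate number as a block, they were 0.0823 and 0.145.

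The markers of alternative activation did not move as a group, and the next paragraphs take Chil3, Retnla, Arg1 and Clec10a in turn. Before the values, the stretches in front of the transcription starts of Chil3 and Retnla are shown, since these 2 genes pointed in opposite directions and both hold a STAT-type motif. Chil3 lies at chr3:106054870-106074880 on the minus strand and Retnla at chr16:48662895-48664824 on the plus strand. The 250 bases before the start of the GENCODE canonical transcript (GRCm39) are given 5′ to 3′ on the strand of the gene, from chr3:106074881-106075130 and chr16:48662645-48662894. Capitals mark the STAT6 motif TTCNNNNGAA, the STAT motif TTCNNNGAA and the GATA motif AGATAA, searched on both strands.

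Chil3: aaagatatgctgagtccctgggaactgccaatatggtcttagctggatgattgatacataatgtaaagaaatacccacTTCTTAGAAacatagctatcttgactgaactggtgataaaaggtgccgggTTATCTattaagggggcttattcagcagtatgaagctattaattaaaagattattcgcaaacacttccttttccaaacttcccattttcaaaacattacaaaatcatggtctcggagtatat

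Retnla: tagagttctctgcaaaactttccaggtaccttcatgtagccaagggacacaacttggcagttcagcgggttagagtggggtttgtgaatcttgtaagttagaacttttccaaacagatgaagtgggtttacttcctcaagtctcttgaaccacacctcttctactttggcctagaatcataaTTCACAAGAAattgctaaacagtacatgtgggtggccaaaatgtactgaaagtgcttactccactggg

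The Retnla stretch holds 1 STAT6 motif, TTCACAAGAA, whose first base is at -68 from the start. The Chil3 stretch holds no STAT6 motif. It holds 1 STAT motif, TTCTTAGAA at -172, and 1 GATA motif on the opposite strand, TTATCT at -122. Over the 10 genes, in windows of 300 bases that run 50 bases past the start, the STAT6 motif was found in 2, Retnla and Il4 (at -163), the STAT motif in Chil3 alone, and the GATA motif in 3, Chil3, Il13 (at -81) and Clec10a (at -209). The windows of Gata3, Il5, Il4ra, Stat6 and Arg1 held none of these letters. Of 21770 protein-coding genes, 6.81% held the STAT6 motif, 8.81% the STAT motif and 10.6% the GATA motif in the same window, so such matches are common. A match describes the letters only.

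Chil3 encodes the secreted chitinase-like protein Ym1, which macrophages and neutrophils make. It rose more than any other member. Counts were 316, 91 and 87 in the WT and 5347, 2419 and 5585 in the sST2-KO libraries. In normalized CPM these were 29.5, 8.58 and 10.7 against 373, 287 and 552, so the lowest sST2-KO library stood far above the highest WT library. The mean went from 16.3 ± 11.5 to 404 ± 135 (SD, n = 3), a log2 fold change of 4.63 (SE 0.56, adjusted p = 0.0100 by edgeR), or 24.8-fold.

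The rise of Chil3 had the same direction without each library, with log2 fold changes of 4.32 to 5.38. The adjusted p was 0.0563 without WT replicate 3 and at most 0.0353 without any of the others. The macrophage and neutrophil lists were higher in the same libraries. All 10 neutrophil genes had a positive log2 fold change (median 2.71) and 4 were called higher, where 9.04% of all tested genes were. S100a9, the most abundant, was 30.7 ± 30.0 normalized CPM in WT and 211 ± 155 in sST2-KO libraries. The part of neutrophils in the rise of Chil3 was not tested. Chil4, whose transcript is 94.4% identical to that of Chil3 over the aligned bases, had 0 counts in 5 libraries and 2 in sST2-KO replicate 2, and reads that fit both genes could be counted for neither or either. Chil1, a more distant relative, was 1.20 ± 0.592 and 12.2 ± 9.30 normalized CPM (log2 fold change 3.36, adjusted p = 0.0343 by edgeR). Chia1 had 2 counts at most in any library.

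Retnla encodes RELMα (FIZZ1), a secreted protein of alternatively activated macrophages and also of adipose tissue. Its counts were 48, 47 and 46 in WT and 11, 21 and 19 in sST2-KO libraries. In normalized CPM these were 4.48, 4.43 and 5.67 against 0.767, 2.49 and 1.88. Every sST2-KO library was below every WT library, and the WT libraries lay close together. The log2 fold change of -1.53 (SE 0.45) came to an adjusted p of 0.0523 in edgeR, just above the threshold, and of 0.0186 in DESeq2. Leaving out 1 library gave log2 fold changes from -1.91 to -1.15, with adjusted p values of 0.0523 to 0.168.

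The relatives of Retnla in the resistin family were read beside it, and none passed the edgeR test. Retnlg, a gene of neutrophils and their precursors, had 58, 21 and 109 counts in WT and 870, 100 and 233 in sST2-KO libraries, a log2 fold change of 2.22 (adjusted p = 0.0833 by edgeR) with overlap. DESeq2 called Retnlg higher (2.17, adjusted p = 0.0122). Its transcript is 84.2% identical to that of Retnla over the aligned bases. Retnlb had 0 counts throughout, and Retn, the resistin gene of adipocytes, was 70.4 ± 37.7 and 67.1 ± 49.9 normalized CPM (log2 fold change -0.07, adjusted p = 0.947 by edgeR, and 0.21 with total counts).

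Arg1 encodes arginase 1, which splits arginine into ornithine and urea in alternatively activated macrophages and, in much larger amounts, in hepatocytes. Its level ranged more widely within groups than that of any other tested member. Counts were 55, 905 and 8 in WT and 287, 679 and 3679 in sST2-KO libraries. In normalized CPM these were 5.13, 85.3 and 0.986 against 20.0, 80.6 and 363. WT replicate 2 was above 2 of the 3 sST2-KO libraries, so the groups overlapped. The log2 fold change was 2.34 with an SE of 1.5, and the adjusted p was 0.302 in edgeR.

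The library with the high WT value of Arg1 also held hepatocyte RNA markers. Of 12 hepatocyte genes, 10 were highest in WT replicate 2 and over 10 times every other library there. The summed level of these 10, picked by that difference, was 50.7, 5520 and 30.1 normalized CPM in WT replicates 1 to 3. It was 8.71, 10.1 and 9.18 in the sST2-KO libraries. The others, Hp and Cyp2e1, were at 7136 and 336 normalized CPM in WT replicate 2. Their highest values elsewhere were 10795 and 396. All 12 genes summed to 4700, 12992 and 4824 in WT and 10883, 4529 and 4004 in sST2-KO libraries. Alb, the albumin gene, had 254, 33870 and 30 counts in the WT and 20, 11 and 19 in the sST2-KO libraries. Cps1 and Otc, which act with Arg1 in the urea cycle of the liver, had 1797 and 125 counts in WT replicate 2 and at most 6 in any other library. Arg1 counts per 100 Alb counts were 21.7, 2.67 and 26.7 in the WT and 1435, 6173 and 19363 in the sST2-KO libraries. Thus the Arg1 reads of the sST2-KO libraries came with few Alb reads, and those of WT replicate 2 with many. The part of hepatocyte RNA in the Arg1 level of WT replicate 2 was not tested.

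Without WT replicate 2, the log2 fold change of Arg1 was 5.61 (adjusted p = 0.0690 by edgeR), and all sST2-KO libraries were above both remaining WT libraries. Without sST2-KO replicate 3, the library with the highest macrophage level, it was 0.72 (adjusted p = 0.784). So 2 libraries set the size of the Arg1 difference in opposite directions, and it did not pass the threshold with either left out.

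**Figure D2:**
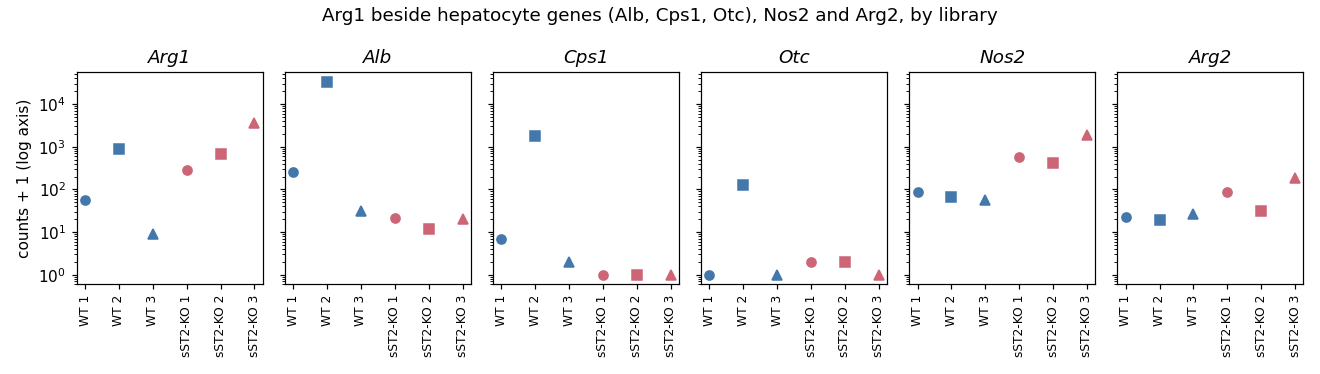
Counts plus 1 on a log axis for Arg1, 3 hepatocyte genes, Nos2 and Arg2 in each library (blue, WT; red, sST2-KO). WT replicate 2 has 33870 Alb counts and 1797 Cps1 counts, and the sST2-KO libraries have at most 20 and 0. Nos2 is higher in all 3 sST2-KO libraries.

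Other genes that use arginine were read beside Arg1. Nos2, the inducible nitric oxide synthase that competes with arginase for its substrate in classically activated macrophages, had 84, 66 and 57 counts in the WT and 590, 407 and 1884 in the sST2-KO libraries. It rose by a log2 fold change of 3.70 (SE 0.62, adjusted p = 0.0150 by edgeR). The ratio of Arg1 to Nos2 was 0.655, 13.7 and 0.140 in WT and 0.486, 1.67 and 1.95 in sST2-KO libraries, with overlap. Arg2, the mitochondrial arginase, had 21, 18 and 26 counts in WT and 88, 31 and 186 in sST2-KO libraries, and its log2 fold change was 2.05 (adjusted p = 0.0575). Of 12 tested genes of arginine metabolism, 3 were called higher, where 9.04% of all tested genes were. These were Nos2 and the polyamine genes Odc1 (1.18, adjusted p = 0.0332) and Sms (1.14, adjusted p = 0.0204). The argininosuccinate lyase gene Asl fell by 2.87 on the log2 scale (adjusted p = 0.0158). It was the 1 gene of the list called lower, where 7.10% of all tested genes were.

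Clec10a encodes the galactose-type lectin CD301a of macrophages and dendritic cells. It measured 65.3, 18.3 and 35.3 normalized CPM in WT and 11.2, 30.1 and 85.2 in sST2-KO libraries. The lowest and the highest of the 6 values were both sST2-KO, and the groups overlapped. The log2 fold change was 0.09 (SE 0.72, adjusted p = 0.943 by edgeR), and it turned to -0.95 without sST2-KO replicate 3 and to -0.26 without WT replicate 2. Mgl2, its neighbor in the lectin family with an 80.5% identical transcript over the aligned bases, had 100, 67 and 107 counts in WT and 17, 46 and 14 in sST2-KO libraries. Mgl2 did not overlap between the groups, with a log2 fold change of -1.87 (SE 0.62, adjusted p = 0.0708 by edgeR). DESeq2 called it lower (-1.88, adjusted p = 0.0152).

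The plot of fold changes without each library shows how much single libraries carried these values.

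**Figure D3:**
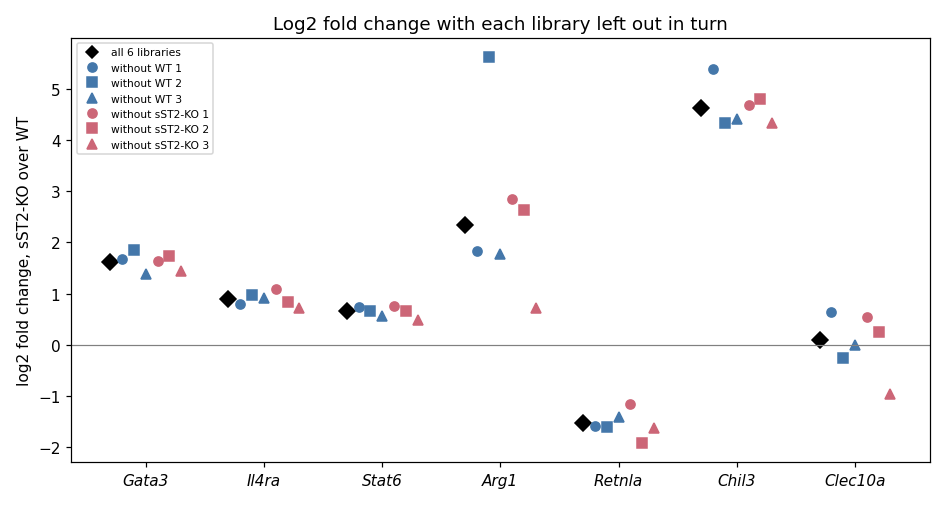
Log2 fold change (sST2-KO over WT, edgeR) of the 7 tested genes with all 6 libraries (black diamond) and with each library left out (colored markers). Chil3 stayed between 4.32 and 5.38, Arg1 ran from 0.72 to 5.61, and Clec10a crossed 0.

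Counted together, 6 of the 7 tested genes had a positive and 1 a negative log2 fold change, with a median of 0.89 beside 0.03 over all 14542 genes. When an adjusted p below 0.05 was asked for together with more than a 2-fold change, 2 were called higher, where 9.04% of all genes were, and 0 lower, where 7.10% were. At an unadjusted p under 0.05, 1 gene, Retnla, was also lower, and DESeq2 called that gene lower. At an adjusted p under 0.05 alone, 3 were higher, where 10.5% of all genes were. The groups did not overlap for 4 genes that were higher, where this held for 21.8% of all genes, and for 1 that was lower, where it held for 19.7%. With 7 genes these counts describe the members only.

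The summed level of the 10 macrophage genes was higher in every sST2-KO library than in any WT library. Of these genes, edgeR called only 2 higher, where 9.04% of all tested genes were. The most abundant, Lyz2, was 309 ± 43.4 normalized CPM in WT and 1559 ± 1580 in sST2-KO libraries. Without sST2-KO replicate 3, the log2 fold changes of Csf1r and C1qa turned to -0.15 and -0.13, and the others stayed positive. Each member that macrophages express was also read as a percent of that summed level in the same library. This ratio does not depend on the scaling between libraries. For groups of 3, the exact permutation test, taken as two-sided, cannot give a p below 0.1, and 6 ratios were compared.

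Relative to macrophage genes, Chil3 was higher and Retnla lower in every sST2-KO library. Chil3 was 2.66%, 0.788% and 1.24% in WT and 24.0%, 19.6% and 8.68% in sST2-KO libraries, a mean difference of 3.54 on the log2 scale (exact permutation p = 0.1, the smallest possible). Retnla was 0.404%, 0.407% and 0.657% in WT and 0.0494%, 0.170% and 0.0295% in sST2-KO libraries, a difference of -2.92 (exact permutation p = 0.1). Both held their direction without each library, from 3.14 to 4.01 for Chil3 and from -3.64 to -2.38 for Retnla. With Ptprc, the gene of the pan-leukocyte protein CD45, as the denominator, the differences were 2.24 and -4.22.

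For the other members the groups overlapped. Clec10a was 5.89%, 1.68% and 4.09% in WT and 0.724%, 2.06% and 1.34% in sST2-KO libraries (difference -1.45, exact permutation p = 0.2). Arg1 was 0.463%, 7.84% and 0.114% against 1.29%, 5.50% and 5.72% (difference 2.2, exact permutation p = 0.4). Il4ra was 11.3%, 14.7% and 17.4% against 12.3%, 19.5% and 5.23% (difference -0.40, exact permutation p = 0.7), and Stat6 was 7.38%, 6.81% and 7.33% against 6.24%, 7.49% and 2.19% (difference -0.62, exact permutation p = 0.4). The lowest Il4ra and Stat6 ratios were both in sST2-KO replicate 3, where the macrophage list was highest. Over Ptprc, Il4ra, Stat6 and Clec10a were lower in every sST2-KO library, by differences of -1.70, -1.91 and -2.74 (exact permutation p = 0.1 for each), and Arg1 differed by 0.91 (exact permutation p = 0.7). Over the sum of Adgre1, Csf1r and Mertk, the differences were -0.05 for Il4ra, -0.26 for Stat6, -1.09 for Clec10a and 2.56 for Arg1 (exact permutation p = 1, 0.7, 0.3 and 0.4), so their size depends on the denominator.

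**Figure D4:**
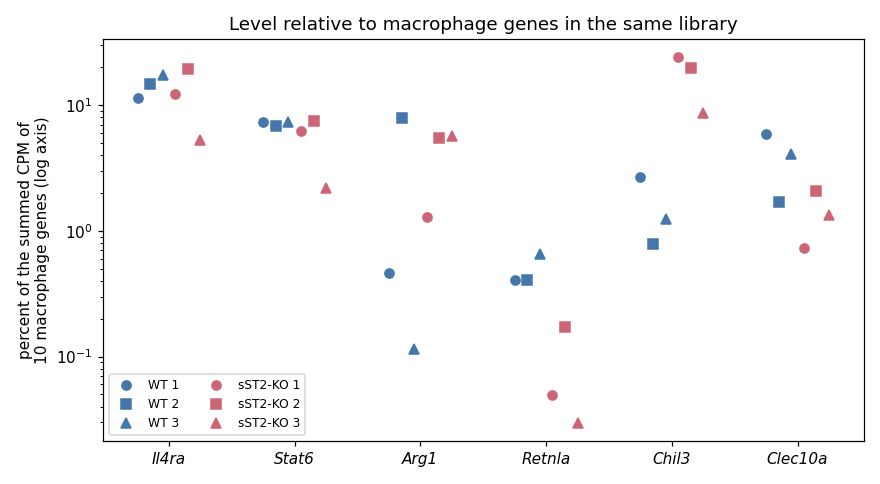
Level of 6 members as a percent of the summed normalized CPM of 10 macrophage genes in the same library, on a log axis (blue, WT; red, sST2-KO; marker shape, replicate number). Chil3 is higher in all 3 sST2-KO libraries (8.68% to 24.0%) than in WT (0.788% to 2.66%), and Retnla is lower in all 3.

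The wider pathway was read in 7 lists of 79 different genes, members included, of which 62 were tested. In these lists 24 genes were called higher, where 9.04% of all tested genes were, and 1 lower, where 7.10% were. The median of the log2 fold changes was 1.03. The same shares over all tested genes stand beside the counts of each list below. Without the members, 22 of 55 tested genes were called higher. Some called genes, such as Gata3, Icos, Gfi1 and Bcl11b, passed the expression filter only through the sST2-KO libraries. With at least 10 counts in every library, 47 genes of the 7 lists were tested. Of these, 16 were called higher and 2 lower, where 1015 and 910 of all 12609 genes were. The 24 genes called higher in all 7 lists became 28 without sST2-KO replicate 1. They became 21 without WT replicate 1, and 18 and 17 without sST2-KO replicates 2 and 3. The number fell furthest without WT replicate 2, to 13, and without WT replicate 3, to 1, Icos. Without WT replicate 3, edgeR called 36 genes higher in the whole table.

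Receptors and signaling genes were counted first. Of 10 tested receptor genes, 6 were called higher (median 1.79). The largest rises were Il1rl1 (2.56, adjusted p = 0.0239 by edgeR), the ST2 gene named above, and Csf2rb2 (2.27, adjusted p = 0.0169), a relative of the common β chain of the IL-5 receptor. Il1rl1 is the gene edited in the sST2-KO mice, and the part of the deletion in its count was not tested. Il7r (1.99, adjusted p = 0.0197) and Il13ra1 (1.95, adjusted p = 0.0375), the partner of IL-4Rα in the IL-13 receptor, followed. The IL-5 receptor chain Il5ra had at most 1 count in any library. Il13ra2, a decoy receptor for IL-13, was not tested and had 7, 2 and 0 counts in WT and 12, 28 and 44 in sST2-KO libraries. Of 9 signaling genes, 2 were called higher, the kinase gene Jak2 (1.47, adjusted p = 0.0187) and Stat5a (1.04, adjusted p = 0.0263). Of the kinases that bind IL-4Rα and the common γ chain, Jak1 was at 0.62 (adjusted p = 0.0661) and Jak3 at -0.18 (adjusted p = 0.591) on the log2 scale.

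Inhibitors of the pathway rose in part. Of 7 tested, 2 were called higher, the phosphatase gene Ptpn6 (2.45, adjusted p = 0.0141 by edgeR) and Socs3 (2.38, adjusted p = 0.0142), which is best known for restraining IL-6 signaling. Socs1, which restrains JAK kinases, had a log2 fold change of 1.18 (adjusted p = 0.0582). Bcl6, a repressor of many STAT6 target genes, had one of -0.57 (adjusted p = 0.215).

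Among 12 transcription factor genes, 7 were called higher and 1 lower. The largest rises were those of Bcl11b (3.49, adjusted p = 0.0206 by edgeR) and Gfi1 (3.4, adjusted p = 0.0136), which T cells and ILC2s share, Batf (2.84, adjusted p = 0.0165) and Junb (1.96, adjusted p = 0.0148). Irf4, which acts in T helper 2 cells and alternatively activated macrophages and is also induced in brown adipocytes by cold, was the gene called lower. It was 597 ± 712 normalized CPM in WT and 67.9 ± 13.2 in sST2-KO libraries, a log2 fold change of -3.14 (adjusted p = 0.0398). WT replicate 3 alone reached 1418 normalized CPM, and without it the log2 fold change was -1.46 (adjusted p = 0.0630). The brown adipocyte genes were lower in the same libraries, and their part in the level of Irf4 was not tested.

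Most tested genes of ILC2s and T helper 2 cells rose. Of the ligand genes, only Il33 and Tslp were tested, and neither passed. Of 7 tested cell genes, 5 were called higher (median 2.56): Icos (4.78, adjusted p = 0.00563 by edgeR), Il2ra (2.71, adjusted p = 0.0277), Klrg1 (2.71, adjusted p = 0.0220), Il1rl1 and Hpgds (1.28, adjusted p = 0.0292). Il1rl1, the gene edited in the sST2-KO mice, is in both this list and the receptor list. Icos, Il2ra and Klrg1 are also expressed by other T cells, whose genes were higher in the same libraries. The other 2 tested genes of the list did not pass, Ptgdr2 at 1.02 (adjusted p = 0.186) and Il17rb at -0.62 (adjusted p = 0.266) on the log2 scale. Of 9 ligand genes, 2 were tested and 0 were called by edgeR, 0 at an unadjusted p under 0.05 with a fold change above 2, and 0 by DESeq2. Il33 had 157, 145 and 73 counts in WT and 120, 221 and 610 in sST2-KO libraries (log2 fold change 1.34, adjusted p = 0.166), and in normalized CPM sST2-KO replicate 1 was below and replicates 2 and 3 were above every WT library. In 5 of the 9 ligand genes, no library was above the floor of 3 counts.

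Alternative activation genes were mixed as a list. Of 22 genes, 17 were tested and 3 were called higher, Chil3, the β-glucan receptor gene Clec7a (2.61, adjusted p = 0.0187 by edgeR) and Il10 (2.37, adjusted p = 0.0188), the last 2 of which classically activated cells also express. The median was 0.69, and 4 of the 17 had negative values. DESeq2 called 4 of the 17 higher and 2, Retnla and Mgl2, lower, where it called 1680 and 1317 of 24404 genes. Mrc1, the mannose receptor gene, was 65.9 ± 36.6 and 92.1 ± 50.5 normalized CPM (adjusted p = 0.536). Cd163, the scavenger receptor gene of resident macrophages, was 38.6 ± 23.5 and 16.1 ± 6.75 (log2 fold change -1.26, adjusted p = 0.127). Pdcd1lg2, the PD-L2 gene induced by STAT6, did not reach the filter and had 0, 2 and 1 counts in WT and 10, 63 and 65 in sST2-KO libraries, without overlap.

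Lists of the opposing programs were set beside these. In the list of type 1 immunity, 10 of 11 tested genes were called higher (median 2.45), led by Ifng (6.04, adjusted p = 0.0147 by edgeR). In the list of classical activation, 10 of 11 were called higher (median 4.66), led by Acod1 (6.32, adjusted p = 0.0174). Of all tested genes, 9.04% were called higher. Without WT replicates 1, 2 and 3 in turn, the type 1 count was 8, 5 and 0 and the classical count 5, 3 and 0. With at least 10 counts in every library, they were 7 and 4. A difference between the lists was not tested.

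**Figure D5:**
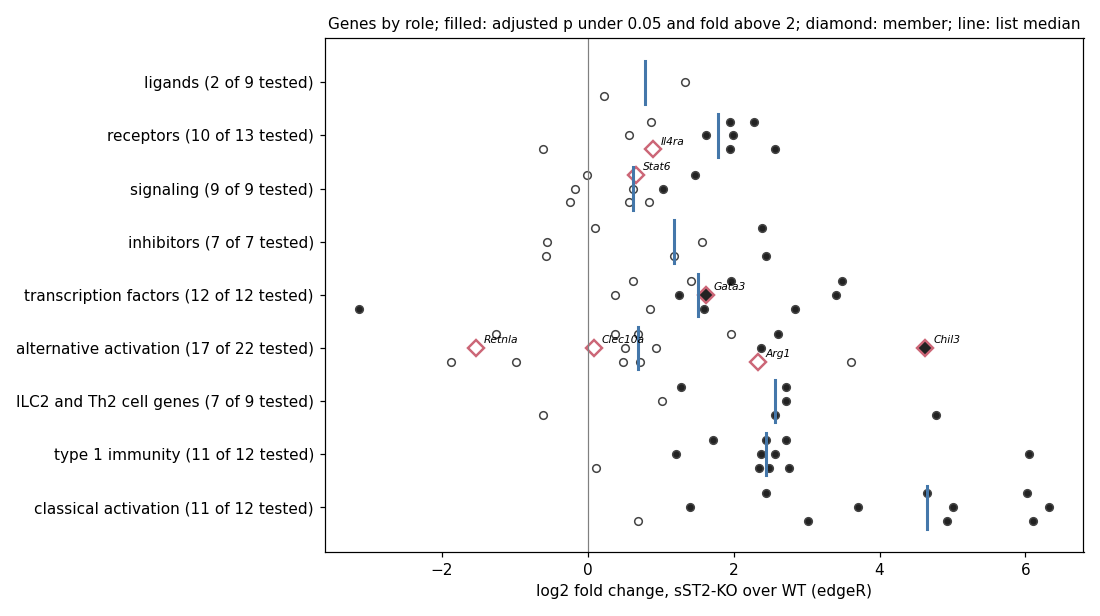
Log2 fold change (sST2-KO over WT, edgeR) of every tested gene in 7 lists of the type 2 pathway and 2 lists of opposing programs. Filled points were called by edgeR at more than a 2-fold change, diamonds are members, and vertical lines are list medians, from 0.62 for signaling to 4.66 for classical activation.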

How the data were processed

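RNA-seq libraries of BAT from 3 WT and 3 sST2-KO mice, poly-A selected and read as paired ends, were processed by the authors, who checked reads with FastQC 0.12.1, aligned them with HISAT2 2.2.1 to mm39 (versions per the submitters' processing notes) and counted them on genes with htseq-count. The deposited table holds raw counts per gene symbol, with 0 columns of per-sample values left unused. The annotation, the htseq-count version and its strand setting are not given in the sources used here, so Gata3, Il4, Il5, Il4ra, Stat6 and Arg1, which overlap genes on the opposite strand, could share reads with them.

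Counts were fitted in R 4.3.3 with edgeR 4.0.16 (filterByExpr on group, TMM, glmQLFit, glmQLFTest, no covariate), with Benjamini-Hochberg adjustment over 14542 genes. TMM factors ran from 0.825 to 1.14. Calls needed an adjusted p below 0.05 together with more than a 2-fold change. The selection by fold change follows the study's methods, which name DESeq2. The SE is the log2 fold change over the square root of F. DESeq2 1.42.0 was run as an alternative, as were scaling by RLE factors or total counts, other filters, robust estimation, a replicate block, other thresholds and leaving out each library. The steps were tested on simulated data.

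Within a group, chi-square over its degrees of freedom ran from 36.6 to 104.0 for pairs of libraries, far above sampling noise. Library labels name separate samples and the study names 3 mice a group, so p values measure the spread between these mice. The members and lists were chosen with earlier results of these data known. All members are named. By rule, the 4 largest called genes of each pathway list, any called gene of the opposite direction, and all paralogs and cytokine locus genes could be named. Further genes, such as Hpgds, were named after their values were seen. Coordinates, transcripts and sequences are from GRCm39 and GENCODE M39, the build that mm39 also names. Figures were drawn with matplotlib 3.10.9, and transcripts were aligned with Biopython 1.88. The results of 1 gene list that was analyzed are not reported here.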

Additional observations from a re-analysis of the deposited data

How the results depend on the processing

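The 2 members called higher became 1 under DESeq2, without a filter and with at least 10 counts in every library, 0 under the replicate block, and 0 to 2 when each library was left out, and it became 3 with total counts, above a 1.5-fold change and by adjusted p alone. The 0 called lower became 1, Retnla, under DESeq2, with at least 10 counts in every library and at an unadjusted p, and stayed 0 without each library. The 24 pathway genes called higher became 16 with at least 10 counts in every library, 0 under the replicate block and 1 to 28 when each library was left out. The 1 called lower became 3 under DESeq2, 2 with at least 10 counts, 4 at an unadjusted p, 0 under the replicate block and 0 to 2 without each library. Clec10a reversed to -0.069 under the replicate block and to -0.26 without WT replicate 2, and ran from -0.95 to 0.65 over the libraries left out. The Il4ra ratio to macrophage genes ran from -0.83 to 0.12 and reversed without sST2-KO replicate 3. The cause was not tested. Of the other settings of the 7 members, 89 kept direction and side of the threshold, 11 lost and 7 gained a call, and 3 reversed. The 89 include genes called in neither setting. Settings that changed only a threshold used the main fit, so the direction could not change there. With at least 10 counts in every library, Gata3 and Arg1 were not fitted.

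The labels do not say whether replicate numbers pair the mice. Same-numbered libraries had deviations correlated at -0.06, 0.22 and -0.32 for replicates 1 to 3, which cannot decide it with 3 libraries a group. With the number as a block, edgeR called 0 of 14542 genes, with 4623 at an unadjusted p under 0.05, and Chil3 had a log2 fold change of 4.80 (adjusted p = 0.0644).

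With 3 mice a group, a common biological coefficient of variation of 0.325 and cytokine counts under 5, a small difference in Il4, Il5 or Il13 was not detectable at this depth.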

Other observations

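Eosinophils, a cell type of type 2 immunity, left few reads in either group. Epx, which encodes eosinophil peroxidase, had 1, 2 and 1 counts in the WT and 0, 0 and 1 in the sST2-KO libraries, and Siglecf had 1, 1 and 0 and 6, 1 and 0. The summed level of 7 eosinophil genes was 0.863 to 3.86 normalized CPM in WT and 1.74 to 4.84 in sST2-KO libraries, with overlap, and most of it came from Ear2 (1.78 ± 1.49 and 1.86 ± 1.13, n = 3).

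Mast cell and basophil genes, 8 in all, summed to 15.2 to 28.6 normalized CPM in WT and 35.7 to 128 in sST2-KO libraries, without overlap. Of 5 tested, edgeR called 0, where 9.04% of all tested genes were called higher. At an unadjusted p under 0.05 and a fold change above 2, 3 were higher, where 1868 of 14542 genes were. DESeq2 called 4 of the 5, where it called 1680 of 24404 genes higher. These 4 values rest on sST2-KO replicate 3: without it the edgeR log2 fold change went from 2.77 to -0.11 for Mcpt4, from 3.36 to 0.73 for Tpsb2, from 2.24 to 0.39 for Cpa3 and from 3.09 to 0.95 for Cma1. The most abundant, Kit, which other cells also express, was 17 ± 6.46 and 29.0 ± 7.25 normalized CPM. B cell genes summed to 0.933 to 2.96 and 2.73 to 5.78, and dendritic cell genes to 49.3 to 66.9 and 49.97 to 68.8.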
